A study of Mus musculus with 8 samples.

Results

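The 8 genes of the suppressor of cytokine signaling (SOCS) family, Socs1 to Socs7 and Cish, and the STAT genes Stat3 and Stat5a were followed in cultures of mouse calvarial osteoblasts given parathyroid hormone (PTH). These 10 genes were chosen by symbol, and each had 1 entry among the 47706 genes of the count table. Calvarial osteoblasts are bone-forming cells, here primary cells isolated by collagenase digestion from the skullcaps of newborn mice. The labels give 2 groups of 4 samples, cultures differentiated for 7 days and then treated for 24 hours with either PTH or vehicle, and poly(A) RNA was sequenced from each. The methods describe osteogenic medium, a period in low serum before treatment and a PTH peptide in phosphate-buffered saline, whereas the sample labels name adipogenic differentiation. All sample titles carry the prefix Con, and neither the mouse strain nor the separate origin of the 4 cultures is given, so p-values measure the spread between these samples, which may be technical.

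SOCS proteins close a feedback loop on cytokine receptors. When a cytokine of the interleukin-6, interferon or growth hormone type binds its receptor, Janus kinases (JAKs) on the receptor phosphorylate STAT proteins, which enter the nucleus and switch on target genes, Socs3, Socs1, Socs2 and Cish among them. The SOCS proteins then bind phosphorylated receptors or JAKs through an SH2 domain, and through their C-terminal SOCS box they recruit an elongin and cullin ubiquitin ligase to what they bind. In bone, STAT3 lies downstream of interleukin-6 type cytokines that act on osteoblasts, and STAT5 lies downstream of growth hormone, with SOCS2 as an inhibitor of growth hormone signaling.

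Total counts ranged from 33605610 to 56090654 in the samples treated with PTH and from 41618108 to 46757836 in those given vehicle. Values are given as CPM, counts relative to a library size scaled by edgeR's TMM method, and differential expression is a Benjamini-Hochberg adjusted p under 0.05 in edgeR's quasi-likelihood test over all 16736 genes that passed the filter on low counts. Tnfsf11, which encodes RANKL and is a known target of PTH in osteoblasts, had 1.42 ± 0.365 CPM (SD, n = 4) with vehicle and 128 ± 20.01 CPM with PTH. The median of 12 osteoblast markers lay between 208 and 353 CPM across the samples, and 4 of them (Sp7, Dmp1, Pth1r and Runx2) fell with PTH. The median of 8 adipocyte markers lay between 2.67 and 5.24 CPM, and 1 of them, Pparg, fell with PTH (log2 fold change -1.50, edgeR adjusted p = 3.66e-07). The 10 macrophage markers summed to between 1035 and 1680 CPM with vehicle and between 1620 and 2083 CPM with PTH. Most of this was Lyz2, at 914 ± 187 CPM (SD, n = 4) with vehicle and 1417 ± 203 CPM with PTH. All 10 had positive log2 fold changes, with a median of 0.33, and 2 of them, Lyz2 and Cd14, passed the test (0.63 and 0.50). These markers were named after their values were seen. Macrophages also express SOCS and STAT genes, and the part of these cells in the results that follow was not tested. The 7 lymphocyte markers summed to at most 4.54 CPM in any sample and the 5 endothelial markers to at most 6.97 CPM, and Cd3e, Cd3g, Cd8a and Emcn had no count in any sample.

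Stretches of promoter sequence are shown for the SOCS genes with the 3 largest increases, since binding sites for STATs near their start sites are part of the feedback loop. RefSeq promoter windows of GRCm38.p6, from 250 bases before to 50 bases after a start site, were matched by symbol for 6 of the 10 genes (Socs1, Socs3, Socs4, Cish, Stat3 and Stat5a). They were searched for the STAT motif TTCNNNGAA, which reads the same on both strands, and for the cAMP response element TGACGTCA, to which CREB binds downstream of the PTH receptor. RefSeq places the starts of Socs3 and Cish inside the gene as GENCODE draws it. Capitals mark the STAT motif in the sequences, which are written 5′ to 3′.
Socs3, chr11:117969367-117969616, minus strand, the 250 bases before the start site: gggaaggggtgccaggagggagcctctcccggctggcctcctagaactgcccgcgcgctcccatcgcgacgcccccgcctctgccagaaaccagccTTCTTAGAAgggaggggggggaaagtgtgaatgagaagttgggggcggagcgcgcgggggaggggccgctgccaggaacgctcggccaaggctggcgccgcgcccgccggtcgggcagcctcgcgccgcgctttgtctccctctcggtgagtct
Socs1, chr16:10785537-10785786, minus strand, the 250 bases before the start site: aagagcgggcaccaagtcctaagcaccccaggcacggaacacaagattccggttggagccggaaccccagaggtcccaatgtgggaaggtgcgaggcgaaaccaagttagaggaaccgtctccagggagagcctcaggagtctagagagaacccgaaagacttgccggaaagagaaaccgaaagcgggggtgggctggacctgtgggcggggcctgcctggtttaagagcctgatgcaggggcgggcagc
Cish, chr9:107296654-107296683, plus strand, 30 bases across the start site: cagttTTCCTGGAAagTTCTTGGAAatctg

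Of the 6 genes with a window, 2 held the STAT motif. Socs3 had 1 match, which began 154 bases before the start site. Cish had 2 matches, at bases 1 and 12 from the start site. Among all 32851 windows, 8.30% held the motif, and counted by gene it was 9.55% of the 27025 genes with a window. The cAMP response element was found in none of the members' windows and in 1.79% of all windows. A match is a run of letters and not a measured binding site, and the search covered only these windows.

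Of the 10 genes, 9 were differentially expressed, 7 of them higher and 2 lower with PTH. Across all tested genes, 45.8% were differentially expressed, 23.3% higher and 22.5% lower. In 9 of the 10 genes the samples of the treatments did not overlap, against 43.0% of all tested genes. The median log2 fold change was 0.83 for the 10 genes, 0.88 for the 8 SOCS family genes and -8.14e-04 for all genes tested. Scaling by library totals alone moved the last of these to -0.13 and the calls over all genes from 3907 higher and 3762 lower to 2889 and 5356, but the members' counts stayed at 7 and 2. Socs3, Socs1, Cish, Socs2 and Stat3 rose by a log2 fold change above 1, Socs4 and Socs7 rose by less, Stat5a and Socs5 fell, and Socs6 did not pass the test. In bulk RNA, a change in the number of cells that express a gene and a change in the RNA per cell cannot be told apart.

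**Figure D1:**
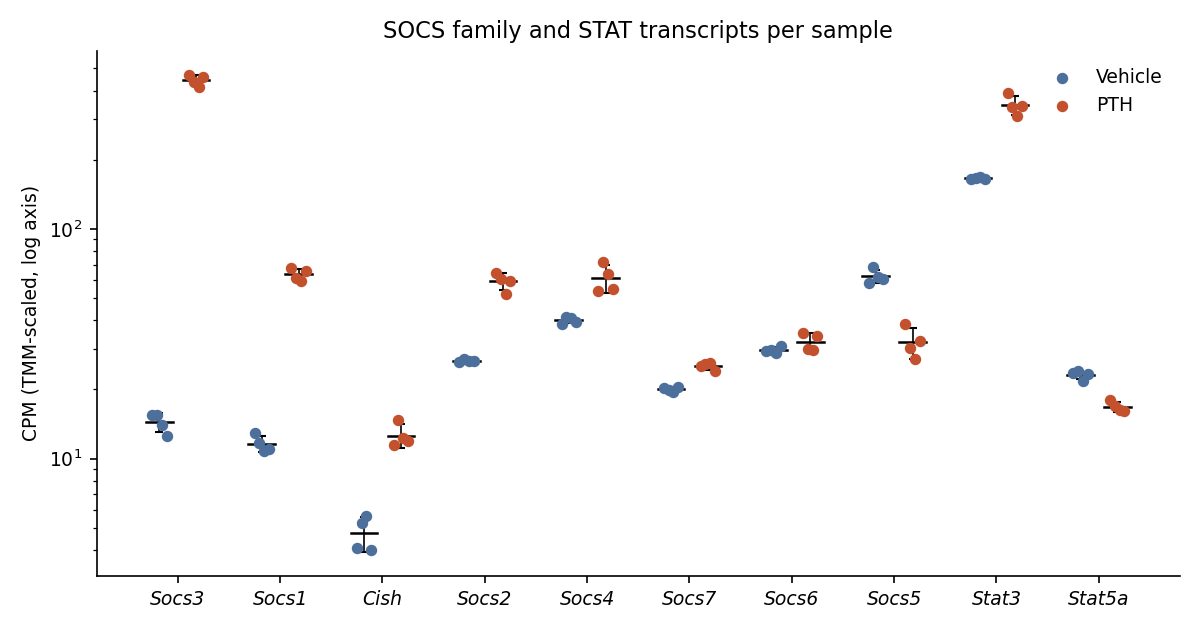
CPM of the 8 SOCS family genes and of Stat3 and Stat5a in each sample (log axis), with vehicle in blue and PTH in red; points are samples, black bars means and error bars SD (n = 4). Socs3 moved from between 12.6 and 15.5 CPM to between 416 and 470.2 CPM, while the Socs6 samples of the treatments overlapped.

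Socs3 encodes the inhibitor that binds the interleukin-6 receptor subunit gp130 and blocks JAK activity. It lies on chromosome 11 from 117966079 to 117970047 on the minus strand of GRCm38 (GENCODE M21). With vehicle it had 15.5, 15.4, 14.1 and 12.6 CPM in samples 1 to 4, and with PTH it had 470.2, 437, 416 and 459.9 CPM. The lowest PTH-treated sample was far above the highest vehicle-treated one, and the samples within each treatment lay close together. The increase was 31.0-fold (95% confidence interval 26.97 to 35.6), a log2 fold change of 4.95 with a standard error of 0.0918 (edgeR adjusted p = 5.44e-12). Among the 16736 genes tested, Socs3 ranked 67 by log2 fold change. It had between 625 and 24100 counts per sample.

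Socs1, whose product is the main brake on interferon signaling and inhibits JAKs directly, showed the next largest change. The gene lies on chromosome 16 from 10782240 to 10785536. Its values were 12.9, 11.6, 10.8 and 11.0 CPM with vehicle and 67.6, 61.3, 59.6 and 65.3 CPM with PTH. The treatments did not overlap, and the increase was 5.48-fold (95% confidence interval 4.85 to 6.18; log2 fold change 2.45, standard error 0.0798, edgeR adjusted p = 2.50e-10). The intervals of Socs1 and Socs3 lay far apart.

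Cish and Socs2 encode the family members tied most closely to STAT5 and growth hormone. Cish, on chromosome 9 from 107296026 to 107302784, had 4.08, 5.24, 5.61 and 4.01 CPM with vehicle and 11.4, 14.8, 12.2 and 11.9 CPM with PTH. It had the fewest counts of the 10 genes, 183 to 269 per vehicle-treated sample, and every PTH-treated sample was higher than every vehicle-treated one. The log2 fold change was 1.41 (standard error 0.141, edgeR adjusted p = 6.41e-06), an increase of 2.66-fold. Cish overlaps 2 annotated genes on the opposite strand (Gm17040 and Gm17041) and shares up to 322 bases of near-identical sequence with them, and since the strand setting of the counting is not given, reads of these genes could not be told apart. Socs2, on chromosome 10 from 95385362 to 95417180, had 26.4, 27.2, 26.7 and 26.6 CPM with vehicle and 64.6, 60.6, 52.3 and 59.3 CPM with PTH. The vehicle-treated samples were nearly identical, and all PTH-treated samples were higher. The increase of Socs2 was 2.21-fold (95% confidence interval 1.98 to 2.47; log2 fold change 1.15, standard error 0.0732, edgeR adjusted p = 1.13e-07). Gm8000 and Gm9847 share up to 599 bases of near-identical sequence with Socs2.

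Socs4, Socs5, Socs6 and Socs7 form the less studied part of the family, with long N-terminal regions, and they did not move as a group. Socs4, on chromosome 14 from 47276931 to 47296102, had 38.6, 41.2, 40.8 and 39.4 CPM with vehicle and 53.6, 72.1, 63.5 and 54.7 CPM with PTH. All PTH-treated samples were higher, with more spread among them, and the increase was 1.52-fold (log2 fold change 0.61, standard error 0.0918, edgeR adjusted p = 1.96e-04). Socs7, on chromosome 11 from 97362551 to 97398542, rose by less, from between 19.5 and 20.5 CPM to between 24.1 and 26.0 CPM (log2 fold change 0.34, standard error 0.0678, edgeR adjusted p = 0.00151). Socs6, on chromosome 18 from 88665224 to 88927481, had between 28.8 and 30.9 CPM with vehicle and between 29.6 and 35.2 CPM with PTH. These ranges overlapped, and the 95% confidence interval of its log2 fold change, -0.04 to 0.29, included 0 (edgeR adjusted p = 0.214). Socs6 shares up to 1006 bases of near-identical sequence with Gm9449.

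Socs5 was the one SOCS family gene that fell. The product of Socs5 has been linked to interleukin-4 and epidermal growth factor receptors. The gene, on chromosome 17 from 87107679 to 87137839, had 58.0, 68.0, 62.0 and 60.8 CPM with vehicle and 38.7, 30.3, 27.04 and 32.4 CPM with PTH. Every PTH-treated sample was lower than every vehicle-treated one. Socs5 fell by 0.95 on the log2 scale (standard error 0.101, edgeR adjusted p = 1.11e-05), which left it 48.3% lower with PTH. Socs3, Socs1, Cish, Socs2, Socs4 and Socs7 differed from Socs5 in direction, and the confidence interval of Socs5 (-1.17 to -0.73) overlapped with that of none of them.

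**Figure D2:**
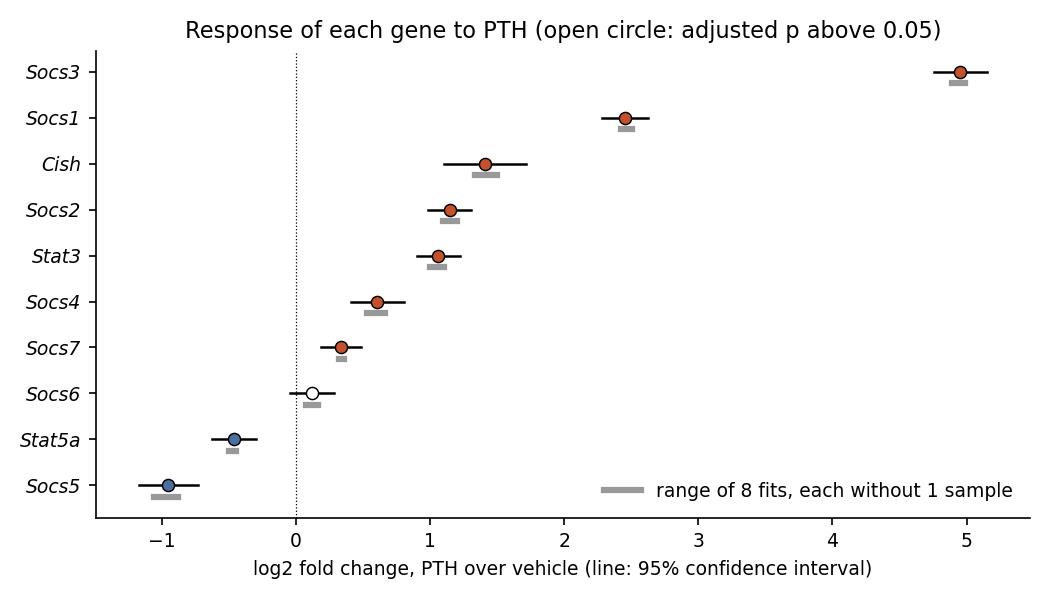
Log2 fold change of each gene (PTH over vehicle, x axis) with its 95% confidence interval as a black line and, in grey, the range over 8 fits that each left out 1 sample; filled circles passed an adjusted p of 0.05. Estimates run from -0.95 for Socs5 to 4.95 for Socs3, and the interval of Socs6 alone includes 0.

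Stat3, the transcription factor activated by interleukin-6 type cytokines, rose with Socs3. It lies on chromosome 11 from 100885098 to 100939540. Its values were 166, 166, 168 and 164 CPM with vehicle and 391, 341, 311 and 343 CPM with PTH. The vehicle-treated samples differed little, the PTH-treated samples were all higher, and sample 1 was the highest of them. The increase was 2.09-fold (95% confidence interval 1.86 to 2.34; log2 fold change 1.06, standard error 0.0745, edgeR adjusted p = 2.55e-07).

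Stat5a, one of a pair of STAT5 genes that mediate growth hormone and prolactin signaling, moved in the opposite direction. The gene lies beside Stat3, from 100859351 to 100885169, on the other strand. It had 23.5, 24.0, 21.8 and 23.4 CPM with vehicle and 17.9, 16.9, 16.3 and 16.2 CPM with PTH. All PTH-treated samples were lower than all vehicle-treated ones, and Stat5a fell by 0.46 on the log2 scale (standard error 0.0743, edgeR adjusted p = 3.14e-04), or by 27.4%. The annotated 3′ ends of Stat5a and Stat3 overlap, and Stat5a shares up to 440 bases of near-identical sequence with Stat5b. Stat5b, counted at its own locus, also fell (log2 fold change -0.75, edgeR adjusted p = 2.24e-05).

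Sample 1 of the PTH group, the most deeply sequenced library, had the highest PTH value for 7 of the 10 genes, the falling genes Socs5 and Stat5a included. Sample 2, the least deep, had the highest value for 2 (Socs4 and Cish). With each of the 8 samples left out in turn, the same 9 genes passed the threshold with the same direction in all 8 fits, and Socs6 passed in none.

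Dividing CPM by the length of the principal transcript, in kb, allows levels to be compared between genes, but the order depends on the length used. The principal transcript of Socs2 has 2222 bases and its merged exons 9531, while for Socs1 both have 2908. Orders with merged exon lengths were not computed, and Socs2 would stand lower in them. On that scale Stat3 was highest with vehicle, at 36.8 ± 0.305 CPM per kb (SD, n = 4). Socs5 (13.4 ± 0.904) and Socs2 (12.0 ± 0.142) followed and were the most abundant SOCS transcripts by principal transcript length. Stat5a (5.96 ± 0.249), Socs4 (5.82 ± 0.177), Socs3 (5.64 ± 0.535) and Socs6 (4.92 ± 0.142) came next, and within these 4 genes the range of each overlapped that of its neighbour in the order. Socs1 (3.98 ± 0.318), Socs7 (2.85 ± 0.0659) and Cish (1.66 ± 0.284) were lowest.

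With PTH, again by principal transcript length, Socs3 stood first, at 175 ± 9.40 CPM per kb, above Stat3 at 76.7 ± 7.33. Socs2 (26.6 ± 2.31) and Socs1 (21.8 ± 1.25) were next, and the samples of these 4 genes did not overlap with each other. Socs4 (8.87 ± 1.25), Socs5 (6.91 ± 1.05), Socs6 (5.35 ± 0.464), Cish (4.42 ± 0.525) and Stat5a (4.32 ± 0.207) followed, and within these 5 genes the range of each overlapped that of its neighbour in the order. Socs7 (3.61 ± 0.127) was lowest and overlapped with none of them. The Socs3 level per kb was between 0.136 and 0.166 of the Stat3 level in the vehicle-treated samples and between 2.13 and 2.37 times that level with PTH. The Stat5a level was between 0.151 and 0.168 of the Stat3 level with vehicle and between 0.0532 and 0.0607 of it with PTH.

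**Figure D3:**
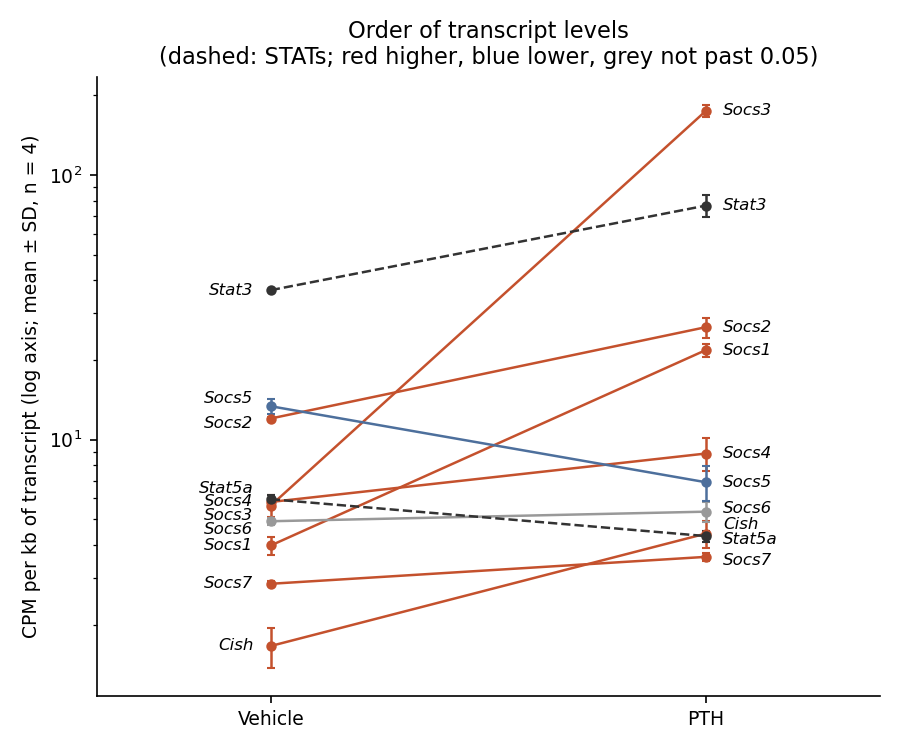
Mean level of each gene in CPM per kb of transcript (log axis, error bars SD, n = 4) with vehicle and PTH. Socs3 went from 5.64 to 175 CPM per kb and passed Stat3, and Socs5, the most abundant SOCS transcript with vehicle, went from 13.4 to 6.91.

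The make-up of the SOCS family also differed between treatments. The summed level of the 8 family genes was between 49.0 and 52.5 CPM per kb with vehicle and between 235 and 266 with PTH, a ratio of means of 5.02 (exact permutation test, two-sided p = 0.0286, the smallest that 4 samples against 4 allow). Without Socs3 the sums lay between 43.6 and 46.4 and between 72.0 and 81.8, a ratio of 1.74 (exact permutation test, two-sided p = 0.0286). Socs3 made up 12.2%, 11.5%, 11.0% and 10.1% of the family total in the vehicle-treated samples and 69.2%, 68.4%, 69.4% and 69.97% in the PTH-treated samples, and no sample lay between these values. The difference of 58.0 percentage points had an adjusted p of 0.0327 over the 8 family genes (exact permutation test, two-sided). The share of Socs2, whose level rose, went from 23.9% ± 0.476 to 10.5% ± 0.442 and that of Socs5, whose level fell, from 26.6% ± 1.14 to 2.73% ± 0.283 (SD, n = 4; adjusted p = 0.0327 for each, exact permutation tests). The shares of Socs4, Socs6, Socs7 and Cish were also lower with PTH (adjusted p = 0.0327 for each, exact permutation tests), but that of Cish lost its call without the division by length (adjusted p = 0.0857, exact permutation test). Shares are parts of one total, so the larger Socs3 share lowers the others, and the levels of Socs4, Socs7 and Cish rose. The tests of the shares are therefore linked, and each adjusted p of 0.0327, that of Socs3 included, draws on the others. The share of Socs1 was 7.93% ± 0.666 with vehicle and 8.64% ± 0.156 with PTH and did not pass the test (adjusted p = 0.143, exact permutation test), and its direction depended on the length used.

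**Figure D4:**
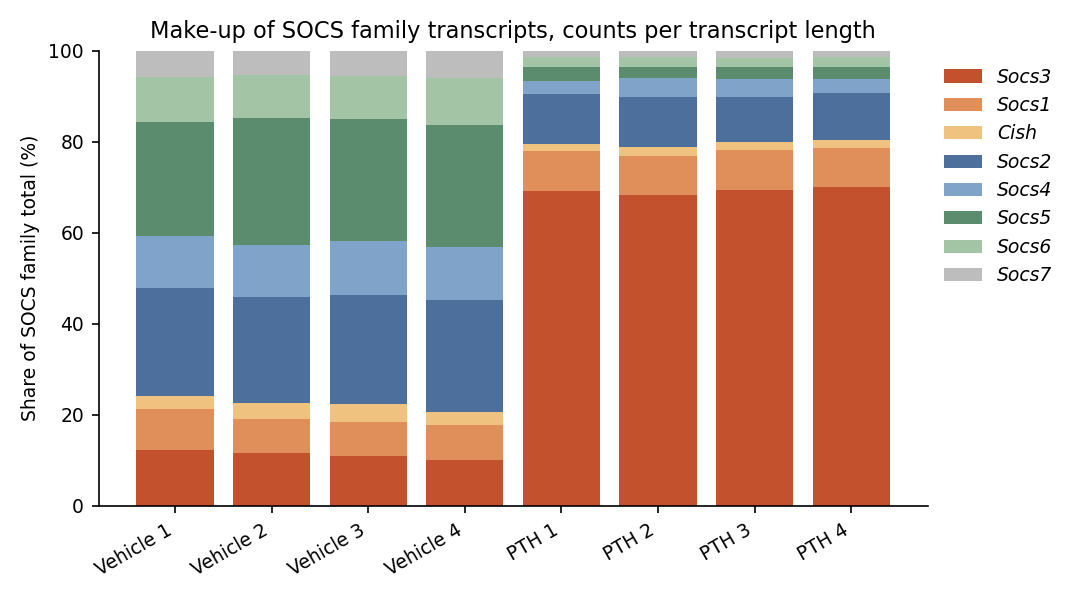
Share of each SOCS family gene in the summed level per kb (%, y axis) in each of the 8 samples. The Socs3 share is between 10.1% and 12.2% in the vehicle-treated samples and between 68.4% and 69.97% in the PTH-treated samples.

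Other genes of the pathway were described from lists written by hand, by the number that passed the test in each direction. Over all 10 lists, 158 genes were tested, of which 65 (against 23.3% of all genes) were higher and 30 (against 22.5%) were lower, with a median log2 fold change of 0.18. With library totals alone, 51 of them were higher and 38 lower. Among 14 tested cytokine ligands, 5 rose and 2 fell, against the same 23.3% and 22.5% of all tested genes. Il6, the interleukin-6 gene, rose from 0.0525 ± 0.0389 CPM, near 0, to 227 ± 31.3 CPM (edgeR adjusted p = 5.44e-12). Lif, another ligand that signals through gp130 and STAT3, rose by a log2 fold change of 4.35 (edgeR adjusted p = 1.23e-11), and Clcf1, also of that type, rose by 1.97 (edgeR adjusted p = 1.08e-06). Il7 (log2 fold change -0.91, edgeR adjusted p = 2.04e-04) and the cardiotrophin gene Ctf1 (-0.46, edgeR adjusted p = 0.0442) fell, but in 7 of the 8 fits without 1 sample, and with a term for sample number, 1 ligand fell.

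Of 34 tested cytokine receptor genes, 15 rose and 3 fell, against 23.3% and 22.5% of all tested genes. With library totals alone, 12 of these receptor genes rose and 5 fell. Il2rb (log2 fold change 4.02), Cntfr (3.13) and Il4ra (2.73), the receptor genes for interleukin-2, ciliary neurotrophic factor and interleukin-4, had the largest increases among those with at least 1 CPM on average. Lifr, the receptor of leukemia inhibitory factor, fell from 73.7 ± 8.17 to 28.5 ± 0.533 CPM (log2 fold change -1.37, edgeR adjusted p = 4.93e-08). Prlr (-0.99) and Ifngr2 (-0.50), which encode the prolactin receptor and an interferon gamma receptor subunit, fell as well.

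JAKs carry the signal from receptor to STAT. Of the 4 Janus kinase genes, Jak1 (log2 fold change 0.30, edgeR adjusted p = 0.00215) and Jak3 (0.72, edgeR adjusted p = 0.0254) rose and Tyk2 fell (-0.66, edgeR adjusted p = 5.99e-04). Jak2, the kinase used by the growth hormone receptor, had a log2 fold change of 0.15 (edgeR adjusted p = 0.193). Only 1 Janus kinase gene rose when vehicle sample 2 or vehicle sample 3 was left out, or when library totals alone were used. Among other STAT genes, Stat6, which acts downstream of interleukin-4, fell (-0.31, edgeR adjusted p = 0.00122), as did Stat5b. Stat2 had a log2 fold change of 0.38 (edgeR adjusted p = 0.0968), and Stat4 had too few counts to be tested.

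Among 18 other inhibitors and adaptors of JAK and STAT signaling, 3 rose and 8 fell, against 23.3% and 22.5% of all tested genes. The tyrosine phosphatase genes Ptpn1 (log2 fold change 1.21, edgeR adjusted p = 4.79e-06) and Ptpn2 (0.78, edgeR adjusted p = 3.48e-05), whose products dephosphorylate JAKs and STATs, rose, and the adaptor gene Sh2b2 rose near the threshold (0.37, edgeR adjusted p = 0.0497). Pias3, which encodes an inhibitor of STAT3, fell (-0.84, edgeR adjusted p = 1.65e-06), as did Stam (-0.61) and Sh2b1 (-0.54). Without vehicle sample 4, 5 genes of this list rose.

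Genes of elongin and cullin ubiquitin ligases, the kind that the SOCS box recruits, were also read, and the list held Cul2 besides Cul5. Of 8 tested, 5 rose and 0 fell in edgeR, against 23.3% and 22.5% of all tested genes. Before adjustment, p was under 0.05 for the same number in each direction, and DESeq2 also called 0 lower. Those that rose were Tceb1 (log2 fold change 0.67), Cul2 (0.66), Rnf7 (0.61), Tceb2 (0.34) and Nedd8 (0.19), where Tceb1 and Tceb2 are older symbols of the elongin genes Eloc and Elob. Cul5, the cullin of SOCS ligases, had a log2 fold change of 0.11 (edgeR adjusted p = 0.171), Rbx1 one of 0.09 (0.268) and Ube2f one of 0.08 (0.455). With library totals alone, 3 of these genes rose. Of 21 tested genes for other SOCS box proteins, 6 rose and 7 fell, against 23.3% and 22.5% of all tested genes. Their median log2 fold change was -0.04. Asb4 (1.501), Spsb1 (1.35) and Spsb4 (1.17) had the largest log2 increases and Asb2 (-2.59), Neurl2 (-0.98) and Asb3 (-0.75) the largest decreases. Without PTH sample 2 or vehicle sample 2, 4 of these genes fell.

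Of 27 genes listed as STAT3 targets, 19 rose and 2 fell, against 23.3% and 22.5% of all tested genes. Their median log2 fold change was 1.14. The list was written by hand with earlier results of these data known, and 6 of its genes did not pass. The largest increases were those of the transcription factor genes Fos, from 8.89 ± 0.898 to 212 ± 20.6 CPM, Bcl3, from 5.93 ± 0.956 to 106 ± 7.30 CPM, and Junb, from 23.8 ± 2.30 to 396 ± 32.1 CPM. Fos and Junb are immediate early genes that many signals induce, cAMP included. The genes that fell were Bcl2l1, which encodes the survival protein BCL-XL (log2 fold change -0.71, edgeR adjusted p = 1.80e-05), and Hif1a (-0.22, edgeR adjusted p = 0.0330), but in 6 of the 8 fits without 1 sample, with DESeq2's size factors and with a term for sample number, 1 gene fell. Of 12 genes listed as STAT5 targets, 7 rose and 2 fell, against the same shares of all tested genes. Pim1, a kinase gene in both target lists, rose from 6.14 ± 0.544 to 95.7 ± 11.2 CPM, and Gadd45g and Pim2 had log2 fold changes of 2.54 and 1.34. Id1 fell by 1.37 on the log2 scale (edgeR adjusted p = 2.74e-06), as did Bcl2l1, which is also in this list.

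Of 25 interferon target genes, 8 rose and 4 fell, against 23.3% and 22.5% of all tested genes. Their median log2 fold change was 0.13. Ifit1 (1.39), Cxcl10 (0.94) and Irf7 (0.58) had the largest log2 increases, and Ddx58 (-0.56), Oasl2 (-0.48) and Gbp2 (-0.40) the largest decreases. Oasl2 had an edgeR adjusted p of 0.0497. With library totals alone, 4 of these genes rose and 6 fell.

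**Figure D5:**
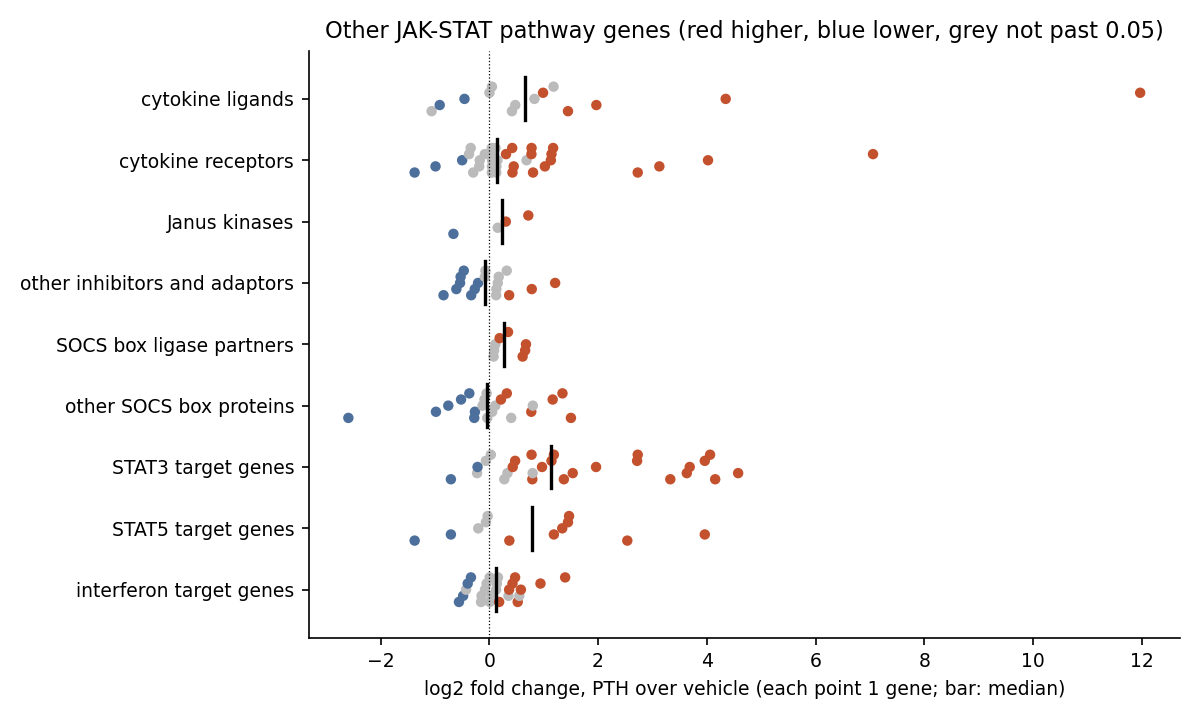
Log2 fold change (PTH over vehicle, x axis) of each tested gene in 9 lists of JAK-STAT pathway genes, with red points higher, blue points lower and grey points not past an adjusted p of 0.05; black bars are list medians. The STAT3 target genes have a median of 1.14 and the other SOCS box proteins one of -0.04.

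The genes whose log2 CPM followed that of Socs3 most closely over the 8 samples were Gadd45g, Slc25a25, Phlda1, Prr5 and Irs2, with Pearson correlations between 0.9994 and 0.9998 among 14056 genes with at least 1 CPM on average. The 8 points fall into the clusters of the treatments, so such values describe the same step between treatments. A correlation above 0.95 was found for 1164 genes. Gadd45g, a stress-response gene in the list of STAT5 targets, went from 51.0 to 296 CPM, and Irs2, an insulin receptor substrate gene, went from 15.2 to 91.3 CPM.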

How the data were processed

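Gene expression was measured by sequencing of poly(A) RNA in 4 PTH-treated and 4 vehicle-treated cultures. The authors used HISAT2 for alignment of paired reads to GRCm38 and StringTie2 for assembly. They deposited whole-number counts per gene, which StringTie2's companion script estimates from transcript coverage and which are not normalized. The annotation version, the strand setting and the read length given to that script are not stated in the sources used here. Samples were grouped by title.

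Counts were analysed with edgeR 4.0.16 in R 4.3.3 (TMM, quasi-likelihood F-test, treatment as the only term). The filterByExpr settings were a minimum count of 10, scaled to library size, in as many samples as the smaller group holds, and a minimum total of 15. The DESeq2 of the study was run as an alternative (version 1.42.0). The edgeR step, tested on simulated counts for 16736 genes, recovered 170 of 200 changed genes with 7 false calls. On the same counts DESeq2 recovered 177 with 33 false calls. As many of the changed genes rose as fell, whereas 45.8% of genes were called in the data. The simulation therefore did not test normalization under such widespread change. Log2 CPM values add a prior count of 2. Transcript lengths are those of the longest APPRIS principal transcript in GENCODE M21. Similar sequence was searched with blastn 2.17.0 (at least 150 bases at 95% identity). Shares were compared by exact permutation tests over 70 assignments in SciPy 1.17.1, with adjustment over the 8 family genes. Standard errors were computed as the absolute log2 fold change over the square root of edgeR's F statistic. Confidence intervals were built from them with t quantiles at the degrees of freedom of the fit.

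The members and the lists were chosen with earlier results of these data known. The text names every member, every tested gene of the Janus kinase, STAT and ligase lists (apart from a STAT result not reported here), the 3 largest changes each way among called genes of at least 1 CPM in the other lists, Tnfsf11 and the 5 genes most like Socs3. Alternatives were DESeq2, DESeq2's size factors, library totals alone, no filter on low counts, counts summed by symbol, the replicate block, a minimum log2 fold change of 1, each sample left out, and shares with no division by length. Shares with merged exon lengths were added after the data were seen.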

Additional observations from a re-analysis of the deposited data

How the results depend on the processing

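Across 15 alternatives, Socs3 (log2 fold change 4.83 to 4.99), Socs1 (2.33 to 2.50) and Cish (1.29 to 1.499) kept their direction and stayed past the threshold. For the other called genes the exception was the test against a minimum log2 fold change of 1, which leaves the estimates as they are by construction and asks for a larger change. By that test Socs2 (1.15), Socs4 (0.61), Socs5 (-0.95), Socs7 (0.34), Stat3 (1.06) and Stat5a (-0.46) were no longer called, 3 members were higher and 0 lower, and in the pathway lists 21 genes were higher and 3 lower; over all genes 672 were higher and 205 lower. With library totals alone, which moved the median of all genes to -0.13, the log2 fold change of Socs6 was -0.01 (-0.00797, adjusted p = 0.938), and 2889 genes were higher and 5356 lower, against 3907 and 3762 with TMM. With the replicate block, the log2 fold change of Socs3 was 4.96, and 7 members were higher and 2 lower, as without it. Samples of one number did not deviate together (correlations across genes from -0.0409 to 0.0274), so the numbers were not taken as pairs, and the block changed no call among the members. The Socs1 share rose by 3.13 percentage points with no division by length, where it passed the threshold, and by 0.717 in the main comparison, but fell by 1.27 with merged exon lengths. The Cish share fell by 0.534 percentage points with no division by length and by 1.54 with it. With 3 samples against 4 the smallest permutation p is 0.0571, so the shares without 1 sample are values with no test. Depth was not a limit for the members, which had 183 counts or more in every sample, but 36 pathway genes had too few counts to be tested.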
